A study of Mus musculus with 20 samples.

Results

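The genes described here are Rpl3, its processed pseudogene Rpl3-ps1, Apobec3, Dennd6b and Cd59b, 5 of the 45802 gene entries measured by bulk RNA sequencing in mouse fetal liver. They were chosen by their deposited log2 values in these same libraries, which moved with the number of Ppara null alleles of the fetus or differed between the 2 control groups of the study, and so the differences between groups given for them are descriptions without a p-value. All 5 passed the filter on low values that left 11807 entries for testing (a linear value of at least 1 in at least 4 libraries). Dennd6b lay near this minimum in every group, and Cd59b passed through the groups in which it was high.

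Livers came from 20 fetuses at E17.5 of strain C57BL/6, 4 per group with 2 of each sex, whose dams had all been fasted for 24 h. FloxDam_FloxFetus were Cpt2f/f fetuses of Cpt2f/f dams, and Cpt2LKODam_FloxFetus were Cpt2f/f fetuses of Cpt2f/f dams with Albumin-Cre, a transgene whose promoter is active in hepatocytes and which deletes Cpt2 in the liver of the dam. HetDam_HetFetus, KODam_HetFetus and KODam_KOFetus were Ppar-alpha heterozygous fetuses of heterozygous dams, heterozygous fetuses of knockout dams and knockout fetuses of knockout dams, and the allele is not described further in the sources used here. By these labels the fetuses carried 0, 0, 1, 1 and 2 Ppara null alleles in the order in which the groups are named here. The titles of the Cpt2 groups call those fetuses wild type, and the genotype labels were followed. The study compared maternal genotypes within each set of groups, and each set had its own controls. The sets are called the floxed and the Ppara colony here, and how they were bred is not given in the sources used here. Between the 2 control groups (HetDam_HetFetus and FloxDam_FloxFetus), colony, litter and Ppara genotype cannot be told apart.

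RPL3 is a core protein of the large ribosomal subunit that lies near the peptidyl transferase centre, and its gene, like those of many ribosomal proteins, has given rise to retrotransposed, intronless copies in the mouse genome. APOBEC3 is a cytidine deaminase that restricts retroviruses, DENND6B is an exchange factor for the small GTPase RAB14 of the endosomal system, and CD59B is a membrane-anchored protein that stops assembly of the complement membrane attack complex. Genes that flank a targeted locus can stay linked to the targeted chromosome through backcrossing, and colonies of one nominal strain can carry different alleles elsewhere. On the mouse genome build GRCm38.p6, Rpl3 lies on chromosome 15 at 80077781 to 80083406, 5.65 Mb from Ppara (85734910 to 85806851). Apobec3 lies at 79892058 to 79918218 on the same chromosome, 159.6 kb from Rpl3 and 5.82 Mb from Ppara, and Dennd6b at 89182213 to 89198427, 3.38 Mb on the other side of Ppara. Rpl3-ps1 is annotated as a pseudogene on chromosome X at 13202518 to 13203837. Cd59b lies on chromosome 2 at 104069781 to 104085790, next to its paralog Cd59a. All but Rpl3-ps1 are protein-coding.

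The sequences of Rpl3 and Rpl3-ps1 bear on every value of the pair, since reads of 75 nucleotides had to be assigned to one entry or the other. In the GENCODE transcripts of the same build, the 1210 nucleotides of Rpl3-ps1 aligned over their whole length to the 1351-nucleotide, 10-exon transcript Rpl3-201, without an inner gap and with 2 substitutions (99.83% identity). With positions counted from 1 at the 5′ end of Rpl3-201, these were C137A in exon 2 (chromosome 15, position 80082529) and T866C in exon 6 (position 80079753), both in the coding sequence. The 41 nucleotides around each are shown because they are the places at which a read can tell the entries apart by a base, and capitals mark that base.

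Rpl3, C137A: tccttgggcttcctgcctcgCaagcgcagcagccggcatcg
Rpl3-ps1, C137A: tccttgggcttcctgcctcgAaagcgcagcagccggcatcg
Rpl3, T866C: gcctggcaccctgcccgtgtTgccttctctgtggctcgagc
Rpl3-ps1, T866C: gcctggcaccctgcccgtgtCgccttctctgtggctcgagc

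Of the 1277 windows of 75 nucleotides in Rpl3-201, 1003 (78.5%) occurred letter for letter in Rpl3-ps1. Of the 1136 windows of Rpl3-ps1, 1078 (94.9%) occurred in a transcript of some other gene. A further pseudogene, Rpl3-ps2, had 10 substitutions, of which T866C was one, and shared 477 windows (37.4%) with Rpl3-201. Over all 7 annotated transcripts of Rpl3, 1082 of 3381 windows (32%) occurred in another gene. By this measure the members other than Rpl3 and Rpl3-ps1 were less affected. Windows found in another gene made up 6.3% of the 10157 of Apobec3, 10.8% of the 1316 of Cd59b (30 of them shared with Cd59a) and 0 of the 6465 of Dennd6b. How reads that match several places were assigned is not given in the sources used here, so the levels of Rpl3 and Rpl3-ps1 are uncertain as separate quantities.

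Values are the deposited log2 expression values, quantile-normalized, and the depth behind them is unknown. A difference is the first group minus the second on the log2 scale, with its standard error from limma (n = 4 fetuses per group). The median difference over all tested genes was -0.15 for HetDam_HetFetus minus FloxDam_FloxFetus and 0.14 for KODam_HetFetus minus HetDam_HetFetus. It was -0.01 for KODam_KOFetus minus KODam_HetFetus and -0.007 for Cpt2LKODam_FloxFetus minus FloxDam_FloxFetus. Small differences of single genes are to be read beside these medians. Between 23334 and 26255 entries had a value in each library, and the correlation of 2 libraries over genes ranged from 0.956 to 0.983. Ppara itself stood at 2.88 to 3.71 in FloxDam_FloxFetus, 3.27 to 3.44 in Cpt2LKODam_FloxFetus, 2.86 to 3.47 in HetDam_HetFetus, 1.81 to 3.22 in KODam_HetFetus and 1.87 to 2.48 in KODam_KOFetus. Transcript was thus read in every knockout library, and since no source states which part is deleted, these levels are no check of the labelled genotypes. All 6 hepatocyte and all 6 erythroid markers were measured in every library, as in fetal liver. HetDam_HetFetus replicate 4 and KODam_KOFetus replicate 2 carried skeletal muscle transcripts, Cpt2LKODam_FloxFetus replicate 2 pancreas transcripts and HetDam_HetFetus replicate 1 intestine transcripts, and without these 4 libraries every member difference reported moved by less than the spread between fetuses.

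Rpl3 fell in steps over the 3 fetal genotypes. Its log2 value was 9.27, 9.07, 9.18 and 9.10 in the 4 replicates of FloxDam_FloxFetus (9.15 ± 0.0906, SD) and 8.98, 9.19, 9.20 and 9.12 in those of Cpt2LKODam_FloxFetus (9.12 ± 0.105). It was 7.98, 7.66, 7.76 and 7.58 in HetDam_HetFetus (7.74 ± 0.175) and 8.17, 8.29, 8.11 and 8.07 in KODam_HetFetus (8.16 ± 0.095). In KODam_KOFetus it was 4.49, 4.32, 3.79 and 3.90 (4.12 ± 0.332). The floxed groups overlapped each other, and every heterozygous fetus lay below every floxed fetus and far above every knockout fetus. The difference was -1.41 ± 0.131 for HetDam_HetFetus minus FloxDam_FloxFetus and -4.03 ± 0.131 for KODam_KOFetus minus KODam_HetFetus. The latter was the 7th largest difference of any tested gene in that comparison.

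Rpl3-ps1 ran the other way. It stood at 3.25, 2.86, 2.27 and 1.92 in FloxDam_FloxFetus (2.58 ± 0.595, SD) and at 2.63, 3.22, 2.62 and 3.45 in Cpt2LKODam_FloxFetus (2.98 ± 0.42). In HetDam_HetFetus it was 8.40, 8.10, 8.31 and 8.27 (8.27 ± 0.124), in KODam_HetFetus 8.62, 8.69, 8.55 and 8.60 (8.62 ± 0.061), and in KODam_KOFetus 9.67, 9.35, 9.21 and 9.48 (9.43 ± 0.197). No heterozygous or knockout fetus came near a floxed one. HetDam_HetFetus minus FloxDam_FloxFetus was 5.69 ± 0.224, the 3rd largest difference in the comparison of the control groups. These groups carry 1 and 0 null alleles but also differ in colony. KODam_KOFetus minus KODam_HetFetus, with 2 and 1 null alleles in the same colony, was 0.81 ± 0.224.

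**Figure D1:**
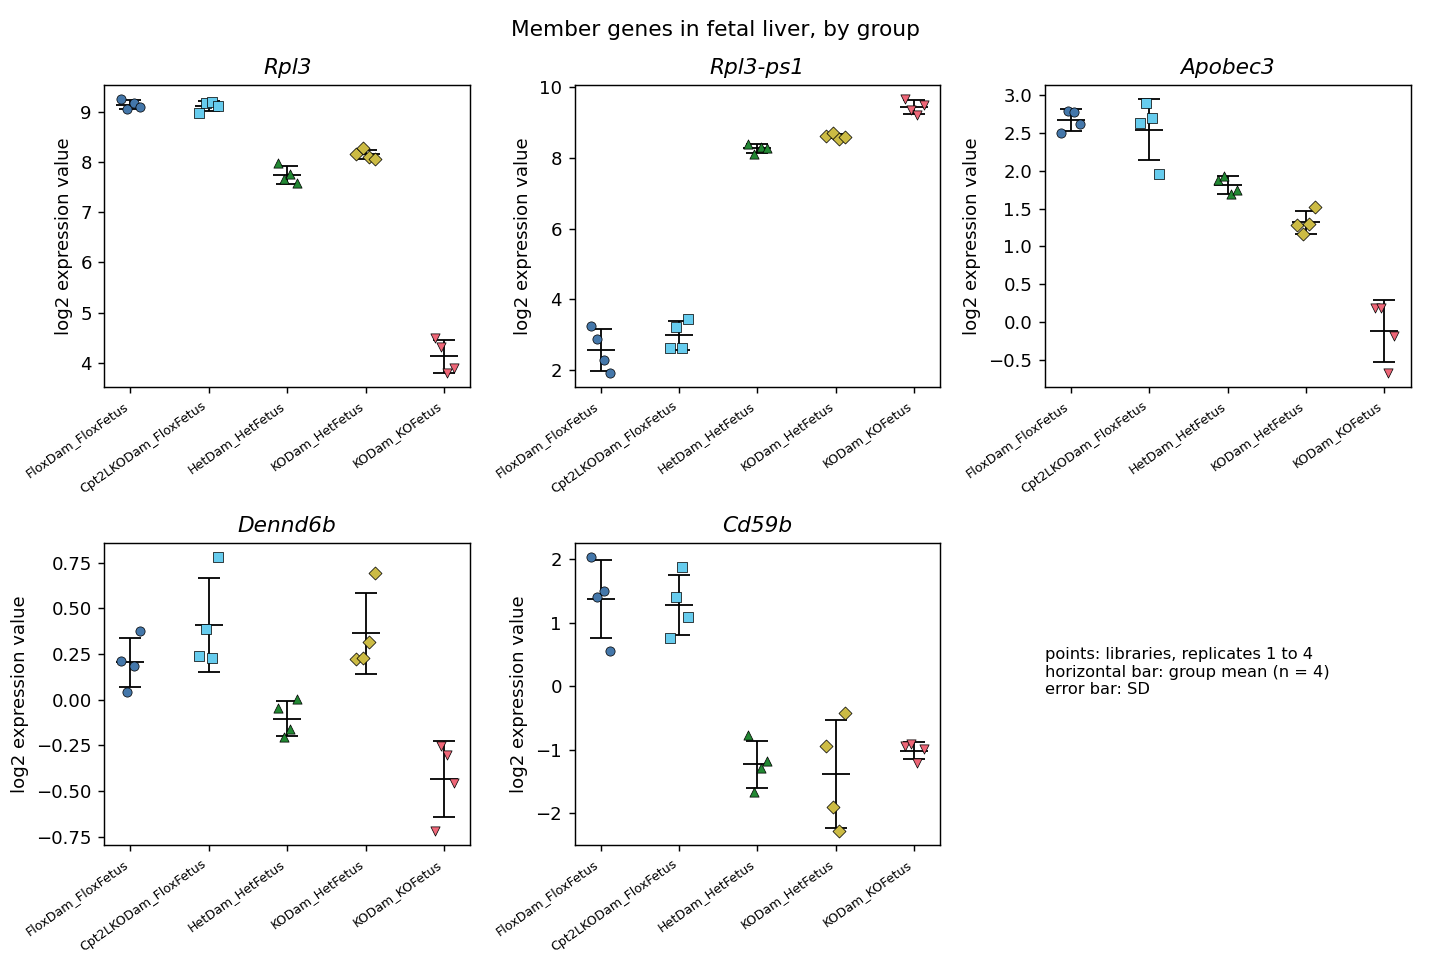
Log2 expression values (vertical axes, a different scale per gene) of the 5 members in each of the 20 fetal liver libraries, by group, with a bar for the group mean and error bars for the SD (n = 4). Rpl3 and Apobec3 step down and Rpl3-ps1 steps up from the floxed through the heterozygous to the knockout fetuses, Dennd6b is lowest in KODam_KOFetus without such an order, and Cd59b lies at 0.56 to 2.04 in the floxed groups and at -2.29 to -0.43 in the other groups.

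Set against each other, the 2 entries exchanged places from the floxed to the knockout fetuses. On the linear scale Rpl3-ps1 made up 0.683% to 1.51% of the sum of both entries in the 4 libraries of FloxDam_FloxFetus and 1.03% to 1.92% in Cpt2LKODam_FloxFetus. Its share was 57.1% to 61.8% in HetDam_HetFetus, 57.0% to 59.1% in KODam_HetFetus and 97.0% to 98.0% in KODam_KOFetus. The shares of groups with the same number of null alleles overlapped, and those of groups with different numbers did not. The log2 of the sum was 9.17 ± 0.0931 (SD, n = 4) in FloxDam_FloxFetus, 9.14 ± 0.105 in Cpt2LKODam_FloxFetus, 9.03 ± 0.133 in HetDam_HetFetus, 9.41 ± 0.0727 in KODam_HetFetus and 9.47 ± 0.197 in KODam_KOFetus. From HetDam_HetFetus to KODam_KOFetus, Rpl3 alone thus differed by -3.62 and the sum by 0.43.

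The sum differed by 0.37 ± 0.101 for KODam_HetFetus minus HetDam_HetFetus, groups that share the fetal genotype and differ in the dam, and by 0.06 ± 0.101 for KODam_KOFetus minus KODam_HetFetus, which differ in the fetal genotype. HetDam_HetFetus minus FloxDam_FloxFetus gave -0.14 ± 0.101 and Cpt2LKODam_FloxFetus minus FloxDam_FloxFetus -0.03 ± 0.101. Rpl3-ps2 stayed at or below -0.81 in the libraries that had a value for it, and did not pass the filter.

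**Figure D2:**
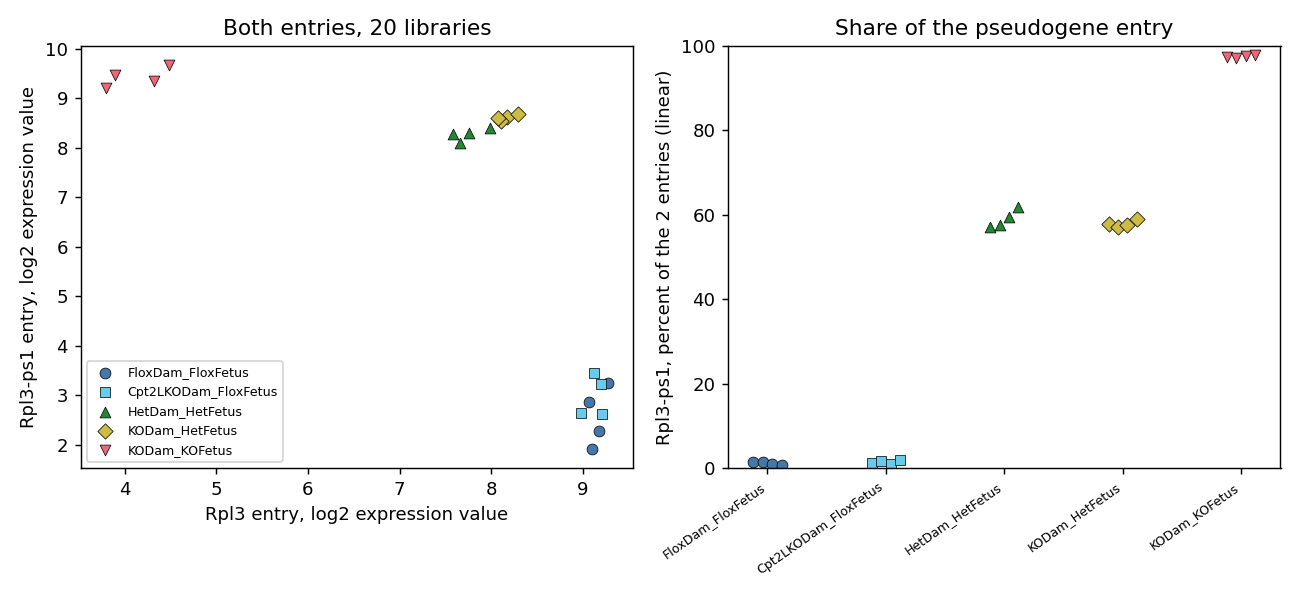
Left, the log2 values of Rpl3 (horizontal) and Rpl3-ps1 (vertical) in the 20 libraries. Right, Rpl3-ps1 as a percentage of the linear sum of both entries, with points at 0.683% to 1.92% in the floxed groups, 57.0% to 61.8% in the heterozygous groups and 97.0% to 98.0% in KODam_KOFetus.

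Of 80 cytosolic ribosomal protein genes tested besides Rpl3, 0 were called for HetDam_HetFetus minus FloxDam_FloxFetus (median difference -0.17, against -0.15 over all tested genes). Of all tested genes 0.136% were called there by limma at an adjusted p under 0.05. For KODam_KOFetus minus KODam_HetFetus 0 of 80 were called (median 0.03), where 0.822% of all tested genes were. For KODam_HetFetus minus HetDam_HetFetus 22 of 80 rose and 0 fell (median 0.24, against 0.14 over all tested genes). There 39% of all 11800 tested genes were called, 3117 higher and 1483 lower. The 22 included Rplp0, a protein of the ribosomal stalk (0.50 ± 0.128, limma adjusted p = 0.00578), Rps2 (0.45 ± 0.108, adjusted p = 0.00374) and Rpl8 (0.39 ± 0.082, adjusted p = 0.0015). The count of 22 fell to 1 after trimmed-mean scaling. For Cpt2LKODam_FloxFetus minus FloxDam_FloxFetus 0 were called, as were 0 of all tested genes (0%, with 1311 at an unadjusted p under 0.05).

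Apobec3 was lower in groups with more null alleles and also differed between the 2 heterozygous groups. Its log2 value was 2.50, 2.79, 2.78 and 2.62 in FloxDam_FloxFetus (2.67 ± 0.142, SD) and 2.64, 2.90, 2.70 and 1.96 in Cpt2LKODam_FloxFetus (2.55 ± 0.408). It was 1.88, 1.94, 1.69 and 1.75 in HetDam_HetFetus (1.81 ± 0.115), 1.17 to 1.52 in KODam_HetFetus (1.32 ± 0.15) and 0.19, 0.19, -0.67 and -0.18 in KODam_KOFetus (-0.12 ± 0.409). Every group from the floxed ones downwards lay below the one before it without overlap, with Cpt2LKODam_FloxFetus replicate 4 only just above HetDam_HetFetus. The difference was -0.86 ± 0.194 for HetDam_HetFetus minus FloxDam_FloxFetus, -0.50 ± 0.194 for KODam_HetFetus minus HetDam_HetFetus and -1.44 ± 0.194 for KODam_KOFetus minus KODam_HetFetus. Adding 4 to the linear values before the logarithm gave -0.47, -0.21 and -0.39, since the values were low.

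APOBEC3 is expressed mainly in blood cells, which fetal liver makes. In bulk RNA, fewer cells of a type and less RNA per cell cannot be told apart. The summed log2 level of 6 neutrophil markers was 9.75 to 10.42 in FloxDam_FloxFetus, 9.51 to 10.12 in Cpt2LKODam_FloxFetus, 10.18 to 10.51 in HetDam_HetFetus, 9.39 to 9.89 in KODam_HetFetus and 9.44 to 10.13 in KODam_KOFetus, with none of the markers blank in any library. For KODam_HetFetus minus HetDam_HetFetus 3 of these 6 were called lower, together with 3 of 6 macrophage markers (1 was higher), where 39% of all tested genes were called. Of all tested genes 3117 were higher and 1483 lower. In that comparison 1 of 5 megakaryocyte markers was called lower, and 0 of 6 erythroid and 0 of 4 tested B lymphoid markers were called. The summed log2 level of the 6 macrophage markers was 8.31 to 8.57 in HetDam_HetFetus and 8.29 to 8.53 in KODam_HetFetus. The part of these cell types in the difference of Apobec3 between these groups was not tested. Among neutrophil, macrophage, megakaryocyte, erythroid and B lymphoid markers, 0 were called for HetDam_HetFetus minus FloxDam_FloxFetus or for KODam_KOFetus minus KODam_HetFetus. Of all tested genes only 0.136% and 0.822% were called there, so these counts say little about the cell types.

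The relatives of Apobec3 were examined in the same way. Apobec1, the deaminase that edits apolipoprotein B mRNA, was not called (-0.10 ± 0.165, limma adjusted p = 0.81, for HetDam_HetFetus minus FloxDam_FloxFetus, and 0.13 ± 0.165, adjusted p = 0.793, for KODam_KOFetus minus KODam_HetFetus). Of 10 tested AID/APOBEC and retrovirus restriction genes besides Apobec3, 0 were called in either, where 0.136% and 0.822% of all tested genes were. For KODam_HetFetus minus HetDam_HetFetus 2 fell, the nucleotide-hydrolysing restriction factor Samhd1 (-0.78 ± 0.179, adjusted p = 0.00282) and the membrane protein Ifitm3 (-0.80 ± 0.277, adjusted p = 0.0288), and 0 rose. There 39% of all tested genes were called (3117 higher and 1483 lower). Trimmed-mean scaling raised the number called in this list to 4.

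Dennd6b, whose values lay near the minimum of the filter, did not step with the number of null alleles. Its log2 value was 0.21, 0.04, 0.18 and 0.38 in FloxDam_FloxFetus (0.20 ± 0.137, SD), 0.24, 0.39, 0.23 and 0.78 in Cpt2LKODam_FloxFetus (0.41 ± 0.259) and -0.05, -0.21, -0.16 and 0.00 in HetDam_HetFetus (-0.10 ± 0.0973). It was 0.22, 0.23, 0.32 and 0.69 in KODam_HetFetus (0.36 ± 0.223) and -0.72, -0.25, -0.30 and -0.46 in KODam_KOFetus (-0.43 ± 0.21). From high to low the means ran Cpt2LKODam_FloxFetus, KODam_HetFetus, FloxDam_FloxFetus, HetDam_HetFetus and KODam_KOFetus. The first 3 overlapped, and the last 2 lay below them and apart from each other. KODam_KOFetus minus KODam_HetFetus was -0.80 ± 0.183, and HetDam_HetFetus minus FloxDam_FloxFetus was -0.31 ± 0.183, or 0.00 after renewed quantile normalization of the tested genes.

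Dennd6a, the closest relative of Dennd6b, had no call in the comparisons made (0.30 ± 0.221, limma adjusted p = 0.626, for KODam_KOFetus minus KODam_HetFetus). Of 15 tested DENN domain genes and Rab14, Dennd6b left out, 0 were called for HetDam_HetFetus minus FloxDam_FloxFetus or KODam_KOFetus minus KODam_HetFetus. Of all tested genes 0.136% and 0.822% were called in these comparisons. For KODam_HetFetus minus HetDam_HetFetus 5 of 15 rose and 0 fell, where 39% of all 11800 tested genes were called (3117 higher and 1483 lower). Dennd1b (1.05 ± 0.242, adjusted p = 0.00276) and Dennd2c (0.85 ± 0.173, adjusted p = 0.00124) were among the 5. Dennd6b itself differed by 0.47 ± 0.183 in that comparison.

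Cd59b differed between the floxed and the Ppara colony and overlapped among the fetal genotypes within the latter. Its log2 value was 2.04, 1.40, 1.51 and 0.56 in FloxDam_FloxFetus (1.38 ± 0.612, SD) and 0.77, 1.40, 1.87 and 1.09 in Cpt2LKODam_FloxFetus (1.28 ± 0.471). It was -0.77, -1.67, -1.29 and -1.18 in HetDam_HetFetus (-1.23 ± 0.372), -0.94, -1.90, -2.29 and -0.43 in KODam_HetFetus (-1.39 ± 0.855) and -0.95, -0.90, -1.22 and -0.99 in KODam_KOFetus (-1.01 ± 0.139). The 8 floxed libraries all lay above 0 and the 12 of the Ppara colony all below, and the 3 Ppara groups overlapped. HetDam_HetFetus minus FloxDam_FloxFetus was -2.60 ± 0.375, the 16th largest difference in that comparison. KODam_KOFetus minus KODam_HetFetus was 0.37 ± 0.375, and Cpt2LKODam_FloxFetus minus FloxDam_FloxFetus was -0.09 ± 0.375.

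Cd59a, which starts 10 kb beyond Cd59b and encodes the more widely expressed CD59 of the mouse, behaved differently in the floxed fetuses. It stood at 4.96, 4.96, 5.04 and 4.55 in HetDam_HetFetus (4.87 ± 0.22, SD), at 5.18 to 5.58 in KODam_HetFetus and at 5.12 to 5.87 in KODam_KOFetus. In FloxDam_FloxFetus it was 3.28, 4.79, 2.99 and 4.36 (3.86 ± 0.858), and in Cpt2LKODam_FloxFetus 2.34, 4.93, 2.94 and 4.89 (3.78 ± 1.33). The floxed libraries thus fell at 2.34 to 3.28 or at 4.36 to 4.93, in both groups, while the Ppara colony showed no such gap. The low floxed values came from 1 female and 3 males and the high ones from 1 male and 3 females. FloxDam_FloxFetus replicates 3 and 4, presumed littermates, lay on different sides. In both floxed groups replicates 1 and 3 were low and replicates 2 and 4 high, and the cause was not tested. HetDam_HetFetus minus FloxDam_FloxFetus was 1.02 ± 0.465 for Cd59a (limma adjusted p = 0.28). The bimodal spread in the floxed colony was noticed after the values were seen.

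**Figure D3:**
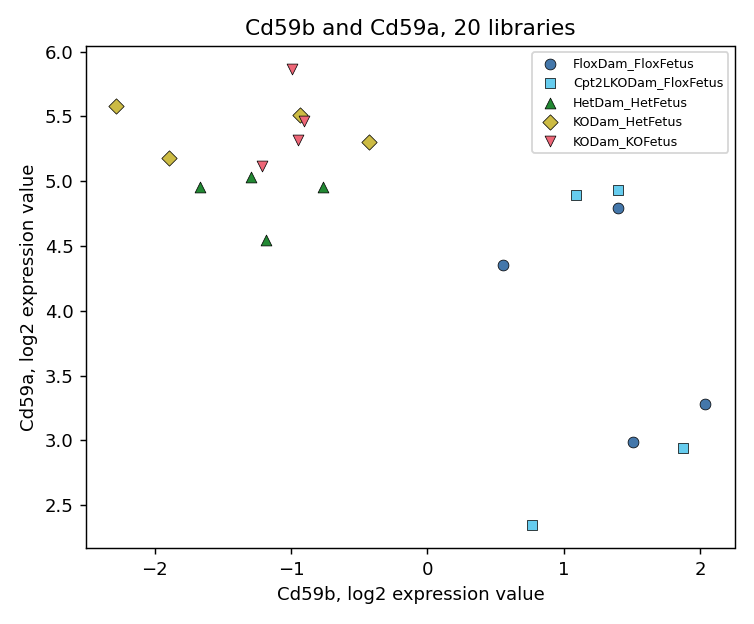
Log2 values of Cd59b (horizontal) and Cd59a (vertical) in the 20 libraries. The floxed groups lie to the right of 0 for Cd59b and in a low band (2.34 to 3.28) and a high band (4.36 to 4.93) for Cd59a, and the Ppara colony lies to the left with Cd59a at 4.55 to 5.87.

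Of 9 tested complement regulators besides Cd59b, 0 were called for HetDam_HetFetus minus FloxDam_FloxFetus (median 0.21), and 0 for KODam_KOFetus minus KODam_HetFetus (median -0.05). Of all tested genes 0.136% and 0.822% were called in these comparisons, with medians of -0.15 and -0.01. For KODam_HetFetus minus HetDam_HetFetus 1 was called, where 39% of all tested genes were. This was C4bp, the fluid-phase inhibitor of the classical pathway, which rose (1.06 ± 0.302, limma adjusted p = 0.0105). After trimmed-mean scaling 3 were called there.

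Fetal sex was the one contrast that played no part in the choice of these genes, and none of the 5 was called for it. Over 10 males and 10 females, with group in the fit, males minus females was 0.05 ± 0.0845 for Rpl3 (limma adjusted p = 0.93) and -0.14 ± 0.142 for Rpl3-ps1 (adjusted p = 0.886), an X-linked entry. It was 0.20 ± 0.117 for Apobec3 (adjusted p = 0.855), -0.16 ± 0.111 for Dennd6b (adjusted p = 0.855) and -0.28 ± 0.234 for Cd59b (adjusted p = 0.87). By this test 0.0508% of all tested genes were called. For Cpt2LKODam_FloxFetus minus FloxDam_FloxFetus, whose fetuses share their genotype, the member differences ran from -0.13 (Apobec3) to 0.40 (Rpl3-ps1). Neither group carries a Ppara null allele by the labels, and the members were chosen in part for following that number. Small differences here were thus part of the choice and are no test of maternal Cpt2 loss.

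The neighbours of the members on the chromosome were examined because their position had no part in the choice. Within 10 Mb of Ppara, 204 genes other than the members were tested. For HetDam_HetFetus minus FloxDam_FloxFetus 0 of them were called, where only 0.136% of all genes were, so this count says little about the region. For KODam_KOFetus minus KODam_HetFetus 97 of all tested genes were called (0.822%), 94 lower and 3 higher. Among the 204 genes near Ppara 3 were called there, all lower (1.47%). These were Cpt1b, the muscle isoform of carnitine palmitoyltransferase 1 (-3.59 ± 0.208, limma adjusted p = 1.68e-09), the noncoding entry Gm44502, whose span covers both of its neighbours and so may share their reads (-1.97 ± 0.311, adjusted p = 0.00119) and Chkb, a choline kinase (-0.87 ± 0.142, adjusted p = 0.00152), which lie together 3.61 to 3.62 Mb from Ppara, on the side of Dennd6b. Cpt1b had a log2 value of 0.61 to 1.00 in KODam_KOFetus, 4.13 to 4.70 in KODam_HetFetus and 3.36 to 4.05 in FloxDam_FloxFetus. It was 2.74 to 3.87 in HetDam_HetFetus, which overlapped FloxDam_FloxFetus (-0.27 ± 0.208, adjusted p = 0.53) and lay below KODam_HetFetus without overlap (KODam_HetFetus minus HetDam_HetFetus 0.89 ± 0.208, adjusted p = 0.00302).

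For KODam_HetFetus minus HetDam_HetFetus 72 of the 204 genes were called (40 higher and 32 lower, 35.3%), which lay near the 39% of all genes. For Cpt2LKODam_FloxFetus minus FloxDam_FloxFetus 0 were called, as were 0 of all tested genes. The genes next to Rpl3, Apobec3 and Dennd6b had no call for HetDam_HetFetus minus FloxDam_FloxFetus or KODam_KOFetus minus KODam_HetFetus. Cbx7, a Polycomb protein gene that overlaps the annotated span of Apobec3 and ends 106.6 kb from Rpl3, gave -0.74 ± 0.208 (limma adjusted p = 0.149) for HetDam_HetFetus minus FloxDam_FloxFetus and -0.84 ± 0.208 (adjusted p = 0.0701) for KODam_KOFetus minus KODam_HetFetus. Its libraries did not overlap between the groups in either. In these comparisons 1946 and 1287 of all tested genes had an unadjusted limma p under 0.05. Of the windows of Apobec3, 26 occurred in Cbx7 on the opposite strand, so the 2 entries may share reads. Syngr1, 7.9 kb on the other side of Rpl3, gave -0.48 ± 0.236 (adjusted p = 0.318) and -0.68 ± 0.236 (adjusted p = 0.326). Cbx6, 57.7 kb from Apobec3, gave -0.08 ± 0.138 and 0.27 ± 0.138 (adjusted p = 0.804 and 0.478). Plxnb2, which ends 0.2 kb from Dennd6b, gave 0.22 ± 0.196 and 0.05 ± 0.196 (adjusted p = 0.606 and 0.947). Ppp6r2, a protein phosphatase 6 regulatory subunit gene 13 kb on the other side of Dennd6b, gave -0.29 ± 0.166 and -0.31 ± 0.166 (adjusted p = 0.383 and 0.511), and was called for KODam_HetFetus minus HetDam_HetFetus (1.01 ± 0.166, adjusted p = 0.000324).

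**Figure D4:**
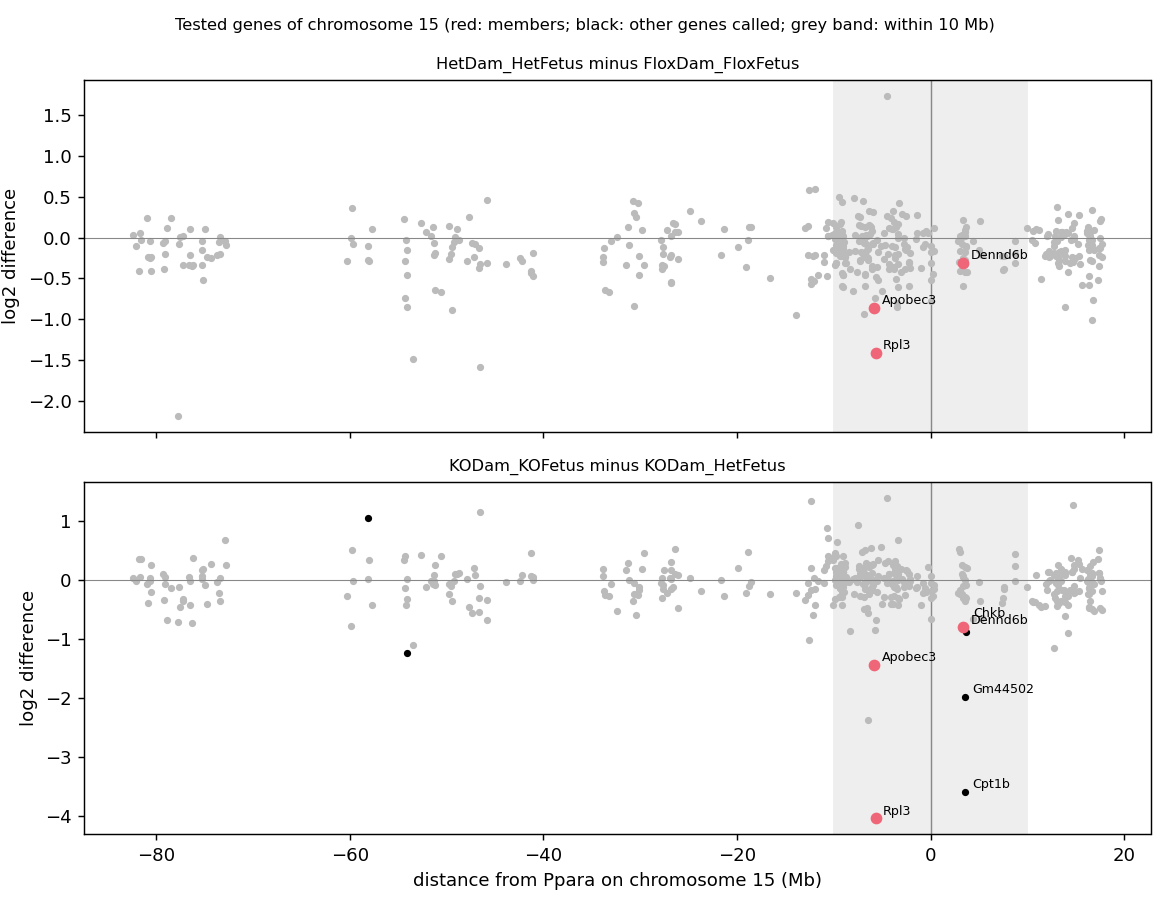
Log2 differences (vertical axes) of the tested genes of chromosome 15 against their distance from Ppara in Mb, for HetDam_HetFetus minus FloxDam_FloxFetus (top) and KODam_KOFetus minus KODam_HetFetus (bottom). Rpl3 lies at -1.41 and -4.03 and Apobec3 at -0.86 and -1.44, below most of the genes around them, and of the genes that are not members, Cpt1b, Gm44502 and Chkb are called inside the 10 Mb band, in the lower panel.

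Near Cd59b, 53 other genes within 10 Mb were tested and 0 were called for HetDam_HetFetus minus FloxDam_FloxFetus, where only 0.136% of all genes were. Its other neighbour Fbxo3, an F-box gene, differed by 0.08 ± 0.134 (limma adjusted p = 0.811). Near Cpt2, the gene floxed in the other colony, 1 of 105 was called (0.952%, against 0.136% of all genes). This was Gm12906 (chromosome 4, 107759440 to 107760473), 0.144 Mb from Cpt2, at 3.53 ± 0.40 (adjusted p = 0.000148), and it was absent from the test when the minimum linear value was 4. Gm12906 entered the test only through the groups in which it was high. Neither its adjusted p nor the share near Cpt2 is therefore evidence on that region.

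Gm12906 is an annotated pseudogene, and over the 20 libraries it was the gene most like Rpl3-ps1 (Pearson's r of log2 values 0.947 among 11633 genes with a value in every library). It stood at -3.73 to -1.85 in FloxDam_FloxFetus, -1.76, -2.08, -2.73 and -2.61 in Cpt2LKODam_FloxFetus, 1.10, 1.29, 0.56 and 0.37 in HetDam_HetFetus, -0.10, 0.54, 1.27 and 1.43 in KODam_HetFetus and 2.01, 2.26, 1.46 and 2.07 in KODam_KOFetus. The floxed, heterozygous and knockout fetuses thus followed each other without overlap, as for Rpl3-ps1, and the entry passed the filter through the groups in which it was high. KODam_KOFetus minus KODam_HetFetus was 1.17 ± 0.40 (limma adjusted p = 0.316) and KODam_KOFetus minus HetDam_HetFetus 1.12 ± 0.40 (adjusted p = 0.0472).

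Gm12906 also shares sequence with a gene of the region around Rpl3, which was looked for after its values were seen. Its 441 nucleotides aligned to Tomm22-201, the transcript of a subunit of the outer mitochondrial import complex, over 426 nucleotides with 12 substitutions (97.2% identity), and 5 of its 367 windows of 75 nucleotides occurred in Tomm22 unchanged. Tomm22 lies on chromosome 15 at 79670868 to 79672862, 404.9 kb from Rpl3 and 6.06 Mb from Ppara. Its own log2 value was 5.97 to 6.26 in FloxDam_FloxFetus, 6.02 to 6.39 in Cpt2LKODam_FloxFetus, 5.61 to 5.87 in HetDam_HetFetus, 5.62 to 6.10 in KODam_HetFetus and 5.58 to 6.00 in KODam_KOFetus. The difference was -0.35 ± 0.130 for HetDam_HetFetus minus FloxDam_FloxFetus (limma adjusted p = 0.211) and -0.12 ± 0.130 for KODam_KOFetus minus KODam_HetFetus (adjusted p = 0.755). In all, there were 43 matches of at least 1 such window between annotated processed pseudogenes outside chromosome 15 and tested genes within 10 Mb of Ppara. Among them Gm4887 counted both for Twf1 and for Irak4. Of the matched pseudogenes 7 passed the filter. They were Rpl3-ps1, Gm12906 and 5 copies of Rpl31, which match another Rpl31 pseudogene of the region. For HetDam_HetFetus minus FloxDam_FloxFetus these copies were lower (from -1.74 for Rpl31-ps17 to -0.05 for Rpl31-ps16), except Rpl31-ps11 (0.79).

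**Figure D5:**
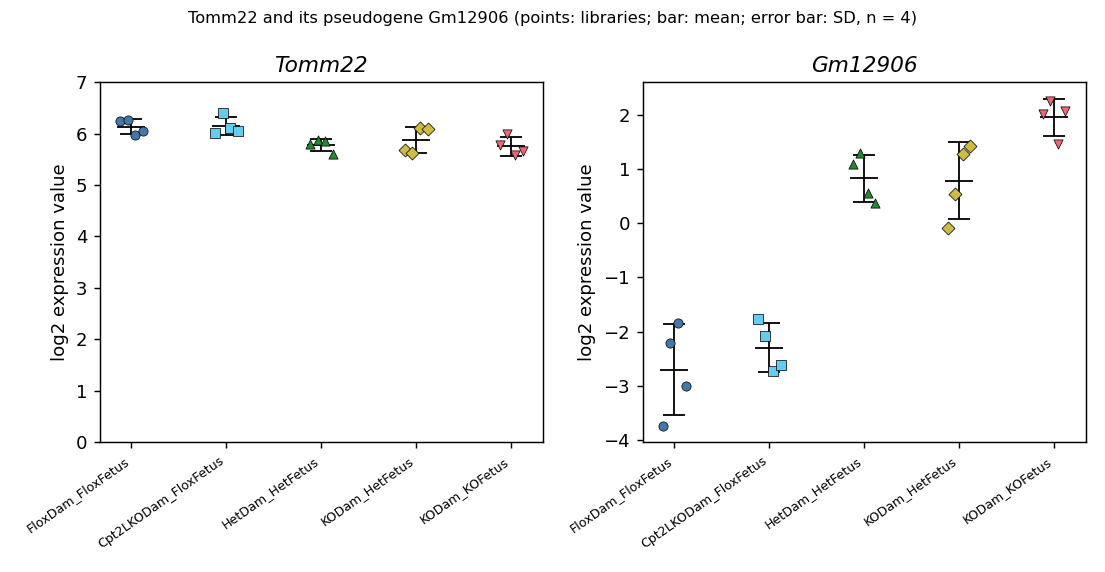
Log2 values of Tomm22 (left) and of the pseudogene Gm12906 (right) by group, with points for the libraries, bars for the mean and error bars for the SD (n = 4). Gm12906 lies at -3.73 to -1.76 in the floxed groups, -0.10 to 1.43 in the heterozygous groups and 1.46 to 2.26 in KODam_KOFetus, while Tomm22 stays between 5.58 and 6.39.

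The genes most like each member over the 20 libraries are given as a description, with Pearson's r of log2 values and the correlation of the deviations from the group means. The libraries share their groups, so a high r can come from the group means alone. For Rpl3 they were Ech1 (0.944), Vnn1 (0.939), Apobec3 (0.935), Cda (0.931) and Fabp1 (0.93), and the deviations correlated at -0.08, 0.46, 0.45, 0.38 and -0.03. Ech1 encodes a peroxisomal and mitochondrial dienoyl-CoA isomerase, Vnn1 a pantetheinase and Fabp1 the liver fatty acid binding protein. For Apobec3 they were Decr2 (0.945), Rpl3, Decr1 (0.927), Cmbl (0.927) and Slc16a7 (0.927). Of these Decr2 and Decr1 encode dienoyl-CoA reductases of the peroxisome and the mitochondrion, and Cmbl, a carboxymethylenebutenolidase homolog, lies on chromosome 15 at 31565342 to 31590119, far from Apobec3. For Dennd6b they were Acaa1b (0.872), Slc22a5 (0.871), 3110001I22Rik (0.87), Slc25a20 (0.861) and Vwa8 (0.859). Slc22a5 and Slc25a20 encode the carnitine carriers of the plasma membrane and of the inner mitochondrial membrane, and Acaa1b a peroxisomal thiolase.

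For Rpl3-ps1 the genes after Gm12906 were Gm16867 (0.898), Gm27177 (0.891), both on chromosome 14, and the 2 entries Erdr1_1 (0.854) and Erdr1_2 (0.844). Gm16867 had a mean of -2.76 in FloxDam_FloxFetus and 4.05 in HetDam_HetFetus, and passed the filter through the groups in which it was high. Deviations from the group means correlated at 0.786 and 0.678 for the Erdr1 entries and at -0.25, -0.06 and -0.14 for Gm12906, Gm16867 and Gm27177. For Cd59b they were Esd (0.854), Churc1 (0.853), Acbd4 (0.839), Lincred1 (0.838) and 3110040N11Rik (0.834). Lincred1, a long noncoding RNA gene, lies near Cd59b on chromosome 2 at 103900951 to 103913968 and had a mean of 2.07 in FloxDam_FloxFetus and 0.74 in HetDam_HetFetus. Among the members themselves, r was 0.935 for Rpl3 with Apobec3, -0.726 for Rpl3 with Rpl3-ps1, 0.773 for Rpl3 with Dennd6b and -0.897 for Rpl3-ps1 with Cd59b. Within groups, Rpl3 and Rpl3-ps1 did not oppose each other (correlation of deviations 0.327).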

How the data were processed

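Bulk poly(A) RNA of 20 fetal livers was sequenced as single reads of 75 nucleotides. Per the submitters' processing notes the tools were bcl2fastq 2.17.1.14 and Partek 7.0, with the build GRCm38.p6. The table deposited by the authors holds log2 values whose library quantiles coincide. The quantity before the logarithm, the counting rule and the depth are not given here by any source, so the precision of low values is unknown.

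Entries with a linear value of at least 1 in at least 4 libraries (11807 of 45802) entered one limma 3.58.1 fit in R 4.3.3 (lmFit, contrasts.fit, eBayes with trend) with a mean per group, and sex added for the sex contrast. Blank cells were left missing. Tests were two-sided, and genes with a Benjamini-Hochberg adjusted p under 0.05 over a comparison were called. The fit was tested on simulated data. Positions came from RefSeq and transcripts from GENCODE, aligned with Biopython 1.88, and windows were compared on both strands.

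The members, lists and tests were chosen with earlier results of these data known. Named genes are the members, Ppara and Cpt2, the 5 best correlated genes of each member, the called genes near Ppara, Cd59b and Cpt2 with the largest differences, Cd59a, Dennd6a and Apobec1. The genes next to each member, Tomm22, Rpl3-ps2 and the named list members were chosen after their values were seen. An unexplained number in the sample descriptions was taken as the litter (17 presumed litters), and littermates were treated as independent. FloxDam_FloxFetus, KODam_HetFetus and KODam_KOFetus each held a pair of presumed littermates. The consensus correlation within presumed litters was 0.566, so standard errors and p-values of their group differences can be too small. Same-numbered libraries of HetDam_HetFetus and FloxDam_FloxFetus had positively correlated deviations (0.239, 0.323, 0.261 and 0.127). The labels do not name them as pairs, and the main fit did not pair them. The replicate number was a block only as an alternative. Alternatives covered pseudocounts of 0.1 and 4, scaling, filters, blocks for replicate number and litter, window sizes and each library left out.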

Additional observations from a re-analysis of the deposited data

Results flagged for a closer look

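In 9 of 210 checks of a quantity in a group of 4 libraries, 1 library stood apart from the other 3 by more than Dixon's critical value of 0.829 times the range. Chance flags about 1 in 20. Among the members' relatives, Cd59a stood at 4.55 in HetDam_HetFetus replicate 4 (next 4.96), a library with skeletal muscle transcripts. Cd59a minus Cd59b stood at 6.86 in KODam_KOFetus replicate 4 (next 6.37), and Rpl3-ps2 at -3.34 in KODam_HetFetus replicate 1. Among the correlated genes, Cda was at -1.71 in KODam_KOFetus replicate 4, Fabp1 at 7.65 in replicate 3 and Gm16867 at 4.74 in replicate 1 of that group. The entry 3110001I22Rik was at 1.26 in KODam_HetFetus replicate 4, and Lincred1 at 0.928 in Cpt2LKODam_FloxFetus replicate 4 and at -0.388 in KODam_HetFetus replicate 3. None of the 5 members itself was among them.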

How the results depend on the processing

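Of the member differences under the alternatives, 551 kept their value within the spread between fetuses, 13 moved and 1 turned, and all 130 sex differences kept their side of the threshold. Adding 4 to the linear values gave, for KODam_KOFetus minus KODam_HetFetus, -3.75 for Rpl3, -0.39 for Apobec3 and -0.16 for Dennd6b, and for HetDam_HetFetus minus FloxDam_FloxFetus 4.95 for Rpl3-ps1, -0.47 for Apobec3, -0.064 for Dennd6b and -0.59 for Cd59b. It gave -0.21 for Apobec3 and 0.10 for Dennd6b for KODam_HetFetus minus HetDam_HetFetus, and 5.83, 5.55 and -5.01 for Rpl3 minus Rpl3-ps1 in FloxDam_FloxFetus, Cpt2LKODam_FloxFetus and KODam_KOFetus. A larger added value shrinks differences of low values by construction. Quantile normalization of the tested genes turned Dennd6b for HetDam_HetFetus minus FloxDam_FloxFetus to 0.00042 and gave 0.26 for KODam_HetFetus minus HetDam_HetFetus, and the cause was not tested. A minimum linear value of 4 left 0 calls near Cpt2, since Gm12906 was then not tested. Near Ppara, KODam_HetFetus minus HetDam_HetFetus had 32 calls within 5 Mb and 124 within 20 Mb, where fewer and more genes were tested. With single libraries left out, calls near Ppara ran from 0 to 1 for HetDam_HetFetus minus FloxDam_FloxFetus (1 without FloxDam_FloxFetus replicate 3 or HetDam_HetFetus replicate 1), from 3 to 4 for KODam_KOFetus minus KODam_HetFetus and from 55 to 73 for KODam_HetFetus minus HetDam_HetFetus. Over all genes, calls for HetDam_HetFetus minus FloxDam_FloxFetus numbered 16, or 5 with a minimum of 4, 7 with 4 added and 8 with litter as a block, and from 8 to 35 with single libraries left out (35 without HetDam_HetFetus replicate 1, 8 without FloxDam_FloxFetus replicate 1 and 9 without HetDam_HetFetus replicate 3 or 4). For KODam_KOFetus minus KODam_HetFetus they numbered 97, or 147 without KODam_KOFetus replicate 3, 73 with litter as a block and 63 with only the 2 groups in the fit. For KODam_HetFetus minus HetDam_HetFetus they numbered 4600, or 3768 with litter as a block and 2845 without the littermates KODam_HetFetus replicates 1 and 2.

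With the replicate number as a block the group differences of the members did not change (-1.41 for Rpl3 and 5.69 for Rpl3-ps1 for HetDam_HetFetus minus FloxDam_FloxFetus), calls near Ppara numbered 0, 3 and 71 for HetDam_HetFetus minus FloxDam_FloxFetus, KODam_KOFetus minus KODam_HetFetus and KODam_HetFetus minus HetDam_HetFetus, and no call of a result changed. In the comparisons other than that of the control groups, deviations of same-numbered libraries correlated at -0.378 to 0.211.

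The unknown depth limits Dennd6b, Cd59b and Gm12906 most, which lie near or below a linear value of 1 in several groups.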
